A study of Mus musculus with 2 samples.

Results

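The interferon-high keratinocytes of the mouse tongue were the 200 cells with the largest share of interferon-induced transcripts among 4066 single cells that passed the filters, out of 4545 barcodes in the series. A barcode was kept when it had at least 500 genes, at least 5000 UMIs (unique molecular identifiers, each a captured transcript), under 10% mitochondrial UMIs and fewer than 10 UMIs of Cd74, an invariant chain of antigen-presenting cells, per 10000. For each kept cell the UMIs of Isg15, Ifit1, Ifit3, Cxcl10, Gbp2 and Iigp1 were summed and divided by its total, and the 200 highest values over both libraries were taken as members. The members therefore differ from other cells in these 6 genes by construction, and those genes are described only.

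The series profiled tongue epithelium of male mice of 8 to 12 weeks, strain given as B57BL/6, at Zeitgeber time 12 (ZT12, lights off by convention) and ZT0 (lights on), to ask how its cells differ between those times. The epithelium was dissociated with TrypLE, a recombinant trypsin-like protease, living cells were sorted by exclusion of the dye 7-AAD, and 10x Genomics 3′ libraries were made. The labels list no transgene and no agent for either group. Each time had 1 library and the number of mice behind it was not in the labels. Library, animals and time therefore cannot be told apart and no spread between animals can be stated. All intervals below are 95% intervals and cover counting error only.

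Interferons are secreted proteins that signal cells to resist infection. Type I and type III interferons act through JAK kinases on a complex that holds STAT2 and IRF9, and type II interferon (interferon gamma, from T and NK cells) acts through a receptor and promoter element of its own. Their target genes include antiviral enzymes, GTPases that attack the vacuoles of intracellular microbes, the machinery that presents peptides on MHC class I, and chemokines that draw T cells. In stratified epithelia such as the tongue, keratinocytes are both a target of interferons and a source of such chemokines.

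The ZT12 library held 11 members, 0.431% of its 2550 kept cells (0.216 to 0.771%), and the ZT0 library held 189, 12.5% of its 1516 kept cells (10.8 to 14.2%). ZT0 thus gave 94.5% of the members (90.4 to 97.2%). None of the 6 genes had a UMI in 91.6% of ZT12 cells and in 55.7% of ZT0 cells, so a value above 0 was itself more frequent in the ZT0 library. The median depth was 29214 UMIs in ZT0 members, against 29279 in the 1327 other ZT0 cells, and the median number of genes found was 5254 in ZT0 members, against 5279 in other ZT0 cells. Mitochondrial UMIs had a median of 3.46% in ZT0 members and 3.69% in other ZT0 cells. The kept ZT12 cells were shallower, with a median of 23468 UMIs against 29265 UMIs in kept ZT0 cells. When each cell was thinned to 5000 UMIs before the value was taken, 148 of the 200 cells were chosen again and 92.5% of the 200 came from ZT0, but 36 of them were an arbitrary pick among 229 cells tied at 1 thinned UMI. The libraries shared 2 barcodes, and no member had a shared barcode.

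**Figure D1:**
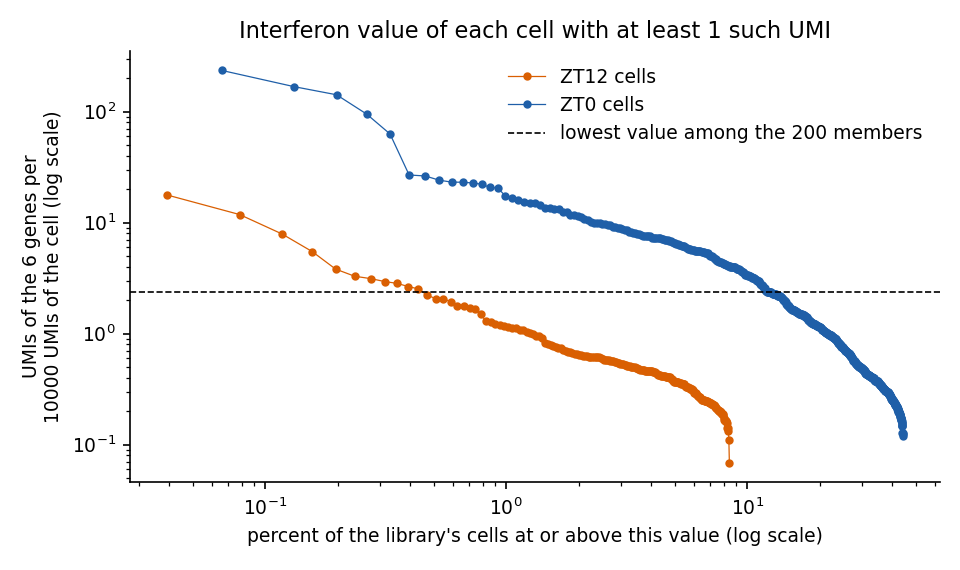
Interferon value of every kept cell with at least 1 UMI of the 6 genes (UMIs per 10000, log scale) against the percent of its library's kept cells that have that value or a higher one (log scale), for ZT12 and ZT0; the dashed line is the lowest value among the members. The ZT0 curve lies above the ZT12 curve over its whole range, and both fall without a step at the line.

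The values form a continuous range, and the members are its upper end and not a separate cluster. The lowest 3 members had 2.38, 2.37 and 2.36 UMIs per 10000, and the 3 highest cells outside had 2.34, 2.33 and 2.32. Within 25% of the limit lay 24 members and 40 other cells. The members had a median of 15 UMIs of the 6 genes (range 2 to 1156), and 15 of them were chosen on 5 or fewer such UMIs. At the upper end the values were very uneven: the highest member had 235 UMIs per 10000, and the 5 highest cells held 43.4% of all 7724 UMIs of the 6 genes in the members. Isg15, a ubiquitin-like protein attached to other proteins, supplied 42.0% of these UMIs, the chemokine Cxcl10 24.4%, the RNA-binding Ifit1 16.4%, the GTPase Gbp2 9.93%, the GTPase Iigp1 5.28% and Ifit3 1.92%.

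The label names 6 marker genes, and they did not mark the members alike. Isg15 was found in 187 of the 189 ZT0 members and Ifit1 in 155, whereas Gbp2 was found in 85, Chil4 in 51, Iigp1 in 30 and Cxcl10 in 16. Isg15 summed to 266 CPM (counts scaled to the usual fixed total of UMIs per group) in the 11 ZT12 members and to 3.06 CPM in the other ZT12 cells. In ZT0 members Isg15 summed to 499 CPM (482 to 517), against 20.9 CPM (19.6 to 22.4) in the other ZT0 cells. Most members are thus marked by Isg15 and Ifit1, and the chemokine and GTPase markers belong to a minority.

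Promoter windows are shown for rule genes found in many members (Isg15, Ifit1) or in few (Cxcl10), for genes outside the rule found in most members (B2m, Bst2) and for Chil4, better known as a gene of type 2 inflammation than as an interferon target. They run from 250 bases before to 50 bases after the RefSeq start of each gene (build GRCm38.p6), 5′ to 3′ on the gene's own strand. Capitals mark GAAANNGAA on either strand, a shortened form of the core of the interferon-stimulated response element that STAT2, IRF9 and other IRF proteins bind as parts of complexes, and TTCNNNGAA, the gamma-activated sequence known from the response to interferon gamma, which reads alike on both strands.
Isg15 (chr4:156200769-156201068, minus strand): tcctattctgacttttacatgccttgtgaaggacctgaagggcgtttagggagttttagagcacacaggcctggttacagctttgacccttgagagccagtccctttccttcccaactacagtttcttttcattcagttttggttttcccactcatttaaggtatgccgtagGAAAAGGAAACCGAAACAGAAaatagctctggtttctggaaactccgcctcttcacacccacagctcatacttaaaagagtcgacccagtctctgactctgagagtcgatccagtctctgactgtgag
Ifit1 (chr19:34640639-34640938, plus strand): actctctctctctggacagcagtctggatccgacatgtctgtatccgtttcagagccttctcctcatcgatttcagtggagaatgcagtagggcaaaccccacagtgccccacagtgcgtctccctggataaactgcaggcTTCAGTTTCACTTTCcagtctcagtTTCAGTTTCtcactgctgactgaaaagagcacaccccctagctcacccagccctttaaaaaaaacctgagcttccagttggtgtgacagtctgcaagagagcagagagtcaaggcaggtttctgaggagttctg
Cxcl10 (chr5:92348840-92349139, minus strand): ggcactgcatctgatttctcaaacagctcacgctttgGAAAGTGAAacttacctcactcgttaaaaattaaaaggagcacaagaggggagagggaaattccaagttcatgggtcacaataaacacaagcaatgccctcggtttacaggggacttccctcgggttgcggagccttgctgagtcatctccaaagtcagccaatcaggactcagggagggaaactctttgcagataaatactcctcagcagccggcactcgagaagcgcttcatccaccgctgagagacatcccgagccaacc
B2m (chr2:122147437-122147736, plus strand): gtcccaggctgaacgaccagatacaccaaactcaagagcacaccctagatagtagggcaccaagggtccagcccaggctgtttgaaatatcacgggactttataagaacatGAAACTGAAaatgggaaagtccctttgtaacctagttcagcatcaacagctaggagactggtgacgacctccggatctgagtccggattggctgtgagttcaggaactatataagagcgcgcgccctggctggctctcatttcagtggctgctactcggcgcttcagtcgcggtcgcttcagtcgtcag
Bst2 (chr8:71537423-71537722, minus strand): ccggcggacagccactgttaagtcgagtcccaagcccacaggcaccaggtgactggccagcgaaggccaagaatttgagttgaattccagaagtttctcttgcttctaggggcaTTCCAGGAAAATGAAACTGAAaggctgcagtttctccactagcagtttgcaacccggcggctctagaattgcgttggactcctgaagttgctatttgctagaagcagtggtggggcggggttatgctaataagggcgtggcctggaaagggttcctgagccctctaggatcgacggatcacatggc
Chil4 (chr3:106219430-106219729, minus strand): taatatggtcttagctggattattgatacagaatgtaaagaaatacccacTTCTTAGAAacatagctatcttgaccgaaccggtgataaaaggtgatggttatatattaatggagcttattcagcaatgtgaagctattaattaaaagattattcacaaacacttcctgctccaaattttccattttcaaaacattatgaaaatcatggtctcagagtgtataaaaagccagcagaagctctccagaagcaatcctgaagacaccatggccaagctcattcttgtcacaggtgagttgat

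In Isg15, 3 overlapping matches to GAAANNGAA ran from 78 to 58 bases before the start. Ifit1 had its matches on the opposite strand, 2 overlapping ones from 109 to 95 and 1 at 84 to 76 bases before the start, and Cxcl10 had its match further out, 213 to 205 bases before the start. B2m encodes the invariant chain that all MHC class I molecules share, and its window had a match 139 to 131 bases before the start. Bst2, a membrane protein that tethers budding viruses, held TTCNNNGAA at 136 to 128 bases and 2 overlapping matches to GAAANNGAA from 130 to 116 bases before the start, so that the capitals form an unbroken run. Chil4 held TTCNNNGAA at 200 to 192 bases before the start and no GAAANNGAA.

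Over all 32851 windows in the RefSeq table, 8.56% held GAAANNGAA and 8.30% held TTCNNNGAA. Counted by gene, with any of its windows, GAAANNGAA was present in 13 of 55 genes higher in the members (23.6%), in 1 of 15 genes lower in them (6.67%) and in 194 of all 2234 genes tested (8.68%). The guanylate-binding protein and immunity-related GTPase list had it in 9 of 10 genes with a window, the antiviral list in 23 of 45, the MHC class I list in 3 of 11 and the immunoproteasome list in 2 of 11. TTCNNNGAA was present in 11 of the 55 genes higher in the members (20%), in 1 of the 15 lower (6.67%) and in 164 of the 2234 genes tested (7.34%). By list it was present in 6 of the 10 GTPase genes and in 7 of the 45 antiviral genes. Of the 6 rule genes 5 had a window, and all 5 held GAAANNGAA. A match is a description of letters in these windows and says nothing of binding in these cells.

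Beyond the 6 rule genes, UMIs were summed over the 189 ZT0 members and over the 1327 other ZT0 cells and scaled to CPM. A gene was called higher or lower when its mean CPM over both groups was at least 50, its ratio of CPM plus 1 was at least 2-fold and the interval of the ratio left out 1. By this rule 74 of 2795 genes (2.65%) were higher in the members and 22 (0.787%) were lower. At a mean of at least 5 CPM, the limit used for the gene lists below, 232 of 9564 genes (2.43%) were higher and 141 (1.47%) were lower. The median log2 ratio over all genes tested was -0.09 at 50 CPM and -0.13 at 5 CPM. A gene under 5 CPM in other ZT0 cells could reach that mean only through a higher level in the members, and such genes made up 14 of the 43 antiviral, 6 of the 7 GTPase, 5 of the 11 sensor, 1 of the 8 MHC class I and 1 of the 13 peptide supply genes measured below. Because the members were picked on genes of the same pathway, the size of these counts is a description and no test was made.

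Among antiviral effectors, 34 of the 43 measured genes outside the rule were higher and none was lower, with a median log2 ratio of 2.28. Over the 29 genes that had at least 5 CPM in other ZT0 cells, 20 were higher at a median of 1.95. Oasl2, an oligoadenylate synthetase-like protein (ENSMUSG00000029561, mm10 chromosome 5, 114896936 to 114912234, plus strand), summed to 207 CPM (196 to 218) in ZT0 members and to 20.1 CPM (18.8 to 21.5) in other ZT0 cells, a ratio of 10.3 (9.43 to 11.2). It had a UMI in 92.6% of ZT0 members and in 25.4% of other ZT0 cells. Thinned to 5000 UMIs per cell these shares were 52.4% of ZT0 members, 7.84% of other ZT0 cells and 0.670% of other ZT12 cells. The ZT12 cells are another library, so their share is no measure of free RNA in the ZT0 library. Bst2 summed to 171 CPM in ZT0 members and to 22.2 CPM in other ZT0 cells. Slfn2, a Schlafen protein of immune and antiviral responses, summed to 79.8 CPM in ZT0 members, a ratio of 31.9 to other ZT0 cells. Rsad2 (viperin), an enzyme that makes a chain-terminating nucleotide, reached 40.8 CPM in ZT0 members and 0.187 CPM in other ZT0 cells, yet 81.1% of its UMIs in the members came from 5 cells.

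Not all genes of the antiviral list followed. Ifi27 had 101 CPM in ZT0 members and 185 CPM in other ZT0 cells, the only measured member of the list with a lower value in the members. Its relative Ifi27l2a, an interferon-induced membrane protein (ENSMUSG00000079017), had 1739 CPM (1707 to 1772) in ZT0 members and 408 CPM (402 to 414) in other ZT0 cells, and was found in 188 of the 189 members. Zc3hav1, Isg20, Tor3a and 5 further genes did not reach the 2-fold limit. In the Ifitm family, whose proteins block fusion of enveloped viruses, Ifitm3 was higher with 987 CPM in ZT0 members against 365 CPM in other ZT0 cells, while Ifitm2 had 204 CPM in ZT0 members and 208 CPM in other ZT0 cells.

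The measured guanylate-binding proteins and immunity-related GTPases outside the rule were 7 genes and had a median log2 ratio of 3.83. Of these 6 had under 5 CPM in other ZT0 cells and were measured only through the members, so their common direction followed from the minimum. Igtp summed to 65.8 CPM in ZT0 members and 3.30 CPM in other ZT0 cells. Gbp7 had 45.8 CPM in ZT0 members and 2.69 CPM in other ZT0 cells, and Ifi47 had 47.4 CPM in ZT0 members and 1.22 CPM in other ZT0 cells. Irgm1, a regulator of these GTPases, had 100.2 CPM in ZT0 members and 9.82 CPM in other ZT0 cells and was found in 74.1% of ZT0 members, against 22.8% of other ZT0 cells. Irgm1 was thus present in most members, whereas Iigp1 of the same family was present in few.

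All 8 measured MHC class I genes were higher, with a median log2 ratio of 2.14. B2m (ENSMUSG00000060802, chromosome 2, 122147686 to 122153083, plus strand) summed to 1169 CPM (1142 to 1195) in ZT0 members and to 254 CPM (249 to 259) in other ZT0 cells, a ratio of 4.60 (4.46 to 4.74). Its median per cell was 12.0 UMIs per 10000 in ZT0 members and 0.951 in other ZT0 cells. The classical heavy chains H2-K1 and H2-D1 had 1451 and 949 CPM in ZT0 members and 451 and 354 CPM in other ZT0 cells. The Qa-2 type genes H2-Q6 and H2-Q7 had 47.4 and 183 CPM in ZT0 members and 5.96 and 30.7 CPM in other ZT0 cells, but they are near-identical copies whose reads the counting could split. MHC class II, by contrast, had a single measured gene, H2-Ab1, with 17.8 CPM in ZT0 members and 11.6 CPM in other ZT0 cells, short of the limit. Cd74 was part of the filter and is not compared.

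In the supply of peptides to MHC class I, 7 of the 13 measured genes were higher, and the others had ratios under 2-fold. The immunoproteasome subunits Psmb8, Psmb9 and Psmb10 had 167, 153 and 59.9 CPM in ZT0 members, against 25.3, 27.8 and 16.4 CPM in other ZT0 cells. The peptide transporter genes Tap1 and Tap2 had 139 and 63.6 CPM in ZT0 members, against 36.0 and 17.8 CPM in other ZT0 cells. The proteasome activators Psme1 and Psme2, known interferon targets as well, had 165 and 237 CPM in ZT0 members, against 82.5 and 129 CPM in other ZT0 cells, and the peptide trimmer Erap1 had 31.5 CPM in ZT0 members and 20.3 CPM in other ZT0 cells, all 3 short of the limit. Canx, Pdia3 and Calr, general chaperones of the endoplasmic reticulum, had 220, 226 and 513 CPM in ZT0 members and 224, 208 and 423 CPM in other ZT0 cells and did not reach the limit.

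The signalling chain itself was higher at some steps and not at others. Among the transcription factors of the pathway Irf7, Nlrc5, Irf1, Stat2 and Irf9 were higher. Irf7, which amplifies type I interferon responses, had 85.8 CPM (78.7 to 93.3) in ZT0 members and 6.17 CPM (5.45 to 6.96) in other ZT0 cells. Irf3, Irf5 and Stat3, known to be activated mainly by modification of existing protein, had 33.0, 20.9 and 99.6 CPM in ZT0 members and 31.7, 19.4 and 90.9 CPM in other ZT0 cells. None of the 8 measured receptors and kinases reached the limit, and Ifnar1 and Ifngr1, chains of the type I and type II receptors, had 9.76 and 20.9 CPM in ZT0 members and 13.2 and 14.5 CPM in other ZT0 cells. Of 11 measured nucleic acid sensors 8 were higher, among them the RNA sensors Ifih1 (69.5 CPM in ZT0 members, 16.0 CPM in other ZT0 cells) and Ddx58 (44.5 CPM in ZT0 members, 10.2 CPM in other ZT0 cells), and the adaptor Mavs was not.

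Some of the genes that switch the pathway off were higher as well. Of 9 measured feedback genes 4 were called: Usp18, which removes ISG15 and blocks the type I receptor, had 60.6 CPM in ZT0 members and 8.02 CPM in other ZT0 cells, and Samhd1, Socs1 and Trafd1 were the others. Socs3, Cish and the phosphatases Ptpn1, Ptpn2 and Ptpn6 did not reach the limit. The interferon genes themselves were at or near 0. The 21 ligand genes summed to 8 UMIs in all ZT0 members and 4 UMIs in all other ZT0 cells, and 7 of the 8 were Ifng UMIs in a single cell, which also had 10 UMIs of the leukocyte gene Ptprc and 21 of the T cell gene Cd3g.

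**Figure D2:**
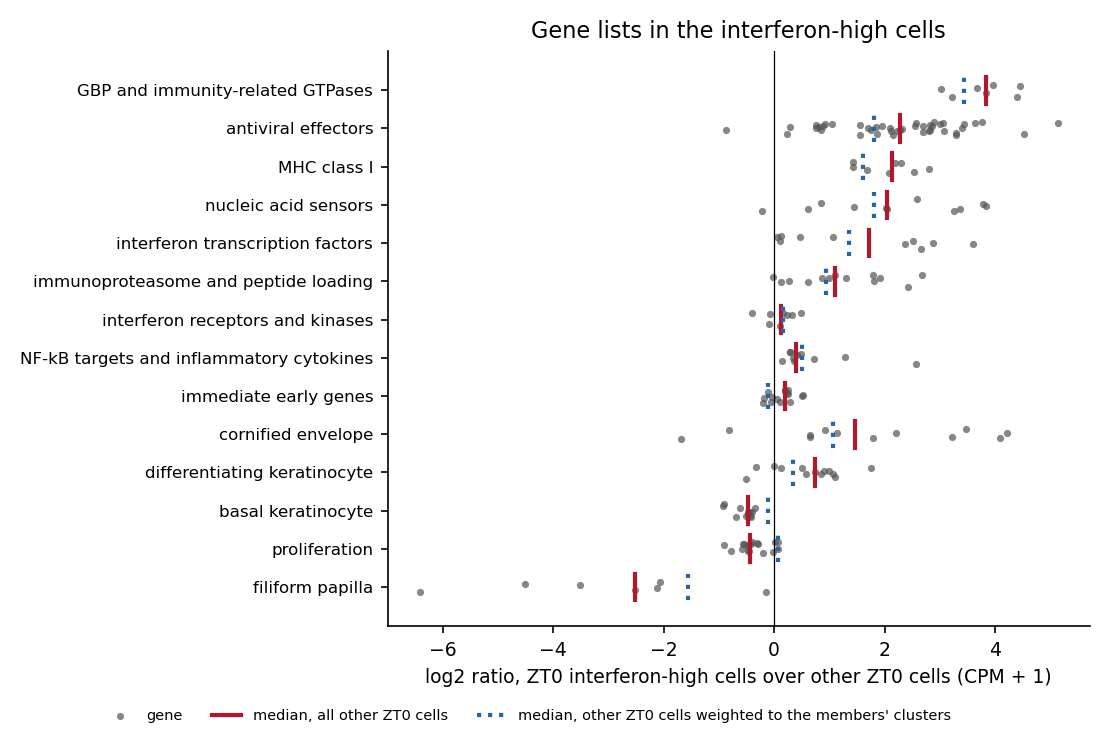
Log2 ratio of CPM plus 1 in ZT0 interferon-high cells over other ZT0 cells for every gene of 14 lists with a mean of at least 5 CPM, the 6 rule genes left out (points); red bars are list medians, and dotted blue bars are medians when the other ZT0 cells are weighted to the clusters of the members. The medians of the upper 6 lists lie to the right of 0 under both, receptors and kinases lie near 0, and the weighting moves the keratinocyte lists towards 0.

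Cell by cell, the genes ranged from those found in nearly all members to those found in few. In ZT0 members B2m was found in 187 of 189 cells, Oasl2 in 175, Bst2 in 170 and Irf7 in 147, and the 5 cells with most UMIs held 8.42% of B2m UMIs and 12.3% of Oasl2 UMIs. Cxcl10 was found in 16 members and Cxcl9 in 12, and 5 cells held 90.8% of the Cxcl10 UMIs and 89.7% of the Cxcl9 UMIs. Ifit3 with 86.9%, Iigp1 with 84.3%, Rsad2 with 81.1% and Gbp2 with 62.5% of UMIs in 5 cells lay between. Of these genes Cxcl10, Ifit3, Iigp1 and Gbp2 were part of the rule, so cells rich in them were members by construction. Genes outside the rule were graded: Slfn2 was found in 51.3% of ZT0 members, Irf1 and Ifi47 in 31.7% each and Gbp6 in 22.2%. For Cxcl10, Cxcl9, Ifit3, Iigp1, Rsad2 and Gbp2 a CPM value over all members is therefore mostly a value of a few cells. Slfn2 was spread more widely, with 28.4% of its UMIs in 5 cells, and Ifi47 had 49.8%.

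**Figure D3:**
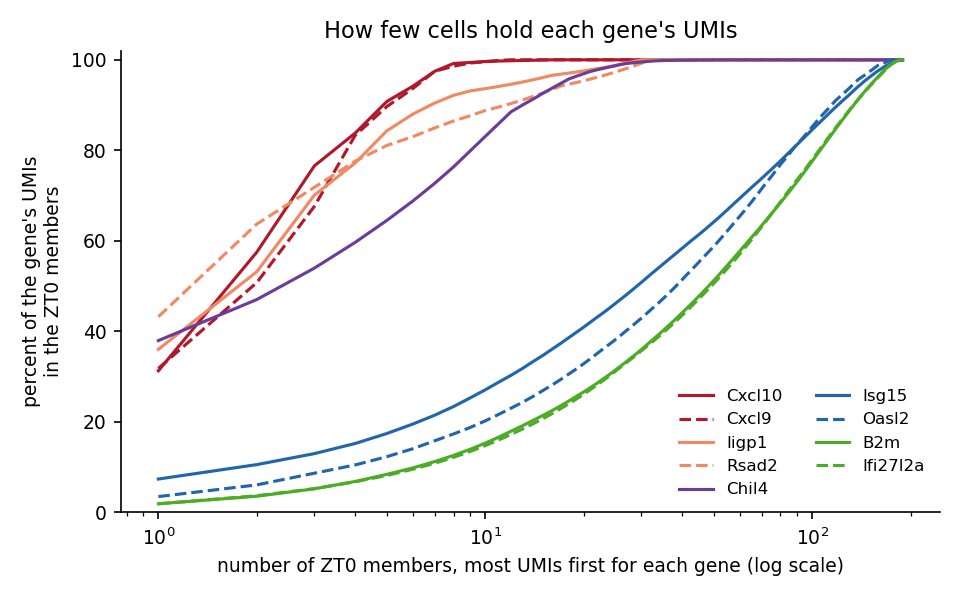
Percent of a gene's UMIs in the 189 ZT0 members (y axis) held by the given number of members (x axis, log scale), counted from the cell with most UMIs of that gene. Cxcl10, Cxcl9, Iigp1 and Rsad2 reach over 80% within 5 cells, Chil4 reaches 64.5%, and Isg15, Oasl2, B2m and Ifi27l2a stay under 18%.

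Cxcl9 and Cxcl10 encode chemokines that draw T cells through the receptor CXCR3. At least 10 Cxcl10 UMIs were found in 1 ZT12 cell and 8 ZT0 cells, all members, and outside the members no cell had more than 4. At least 10 Cxcl9 UMIs were found in 0 ZT12 cells and 7 ZT0 cells, again all members, and no cell outside the members had a single Cxcl9 UMI. Membership on Cxcl10 follows from the rule, whereas Cxcl9 was not part of it. Summed over all members Cxcl9 (ENSMUSG00000029417, chromosome 5, 92321347 to 92328079, minus strand) had 111 CPM (103 to 119.8) in ZT0 members and 0 CPM in other ZT0 cells, with an upper bound of 0.0863 CPM.

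These chemokine cells differed in their keratin state and in the rest of their response. The highest cell had 484 Cxcl10, 119 Cxcl9 and 62 Isg15 UMIs together with 124 Krt5, 167 Krt14 and 29 Mki67 UMIs, genes of basal and of dividing keratinocytes. The second had 578 Cxcl10, 134 Cxcl9 and 234 Isg15 UMIs together with 6284 Krt13 and 185 Crct1 UMIs, genes of differentiated cells, and 1 Krt5 UMI. The third had 129 Cxcl10 and 147 Iigp1 UMIs and the fourth 352 Cxcl10 and 111 Cxcl9 UMIs, both with more Krt13 than Krt5. Basal-type and differentiated cells were thus both among the highest.

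The chemokines also occurred apart from each other and apart from Isg15. The cell at rank 24 had 225 Cxcl9 UMIs, the most of any cell, and 1 Cxcl10 UMI. The cell at rank 5 had 134 Cxcl10 UMIs with 7 Isg15 and 0 Cxcl9 UMIs. The cell at rank 31 had 61 Cxcl10, 97 Ccl20 and 21 Irf1 UMIs with 1 Isg15 and 0 Ifit1 UMIs, and those at rank 63 (ZT0) and 101 (ZT12) had 32 and 31 Cxcl10 UMIs and no Isg15 UMI. Ccl20, a chemokine for dendritic cells and certain T cells that is classically induced through NF-kB, had 93.3% of its 104 UMIs in the members in that cell at rank 31. Of 10 measured NF-kB targets and inflammatory cytokines 2, Tnfaip3 and Il33, were higher in ZT0 members than in other ZT0 cells. Both had under 5 CPM in other ZT0 cells, and 91.6% of the 83 Il33 UMIs and 58.5% of the 53 Tnfaip3 UMIs in ZT0 members lay in 5 cells. Nfkbia, the inhibitor that NF-kB induces, had 240 CPM in ZT0 members and 145 CPM in other ZT0 cells, short of the limit.

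The level of the broad response followed the value down through the members and on into the other cells. In ZT0 cells taken as the 10 highest members, ranks 11 to 60, ranks 61 to 189, other cells with a value above 0 and other cells with a value of 0, B2m had 1689, 1368, 1028, 441 and 127 CPM. Oasl2 had 470, 251, 163, 40.4 and 6.33 CPM over the same 5 sets, and H2-K1 had 2269, 1525, 1343, 693 and 286 CPM. Iigp1 had 1012, 12.5, 3.92, 0.289 and 0 CPM, and Gbp6, which the rule did not use, had 270, 27.2, 4.66, 0.577 and 0.118 CPM. Ifi27l2a was nearly level in the members with 1788, 1995 and 1614 CPM, and had 710 and 202 CPM in the other ZT0 cells. The sets are cuts of the same value, so the order of the rule genes is given by construction, and the other genes belong to the same pathway. ZT12 cells outside the members had lower levels in the same sets: B2m had 63.9 CPM in ZT12 cells with a value above 0 and 23.5 CPM in those with a value of 0.

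**Figure D4:**
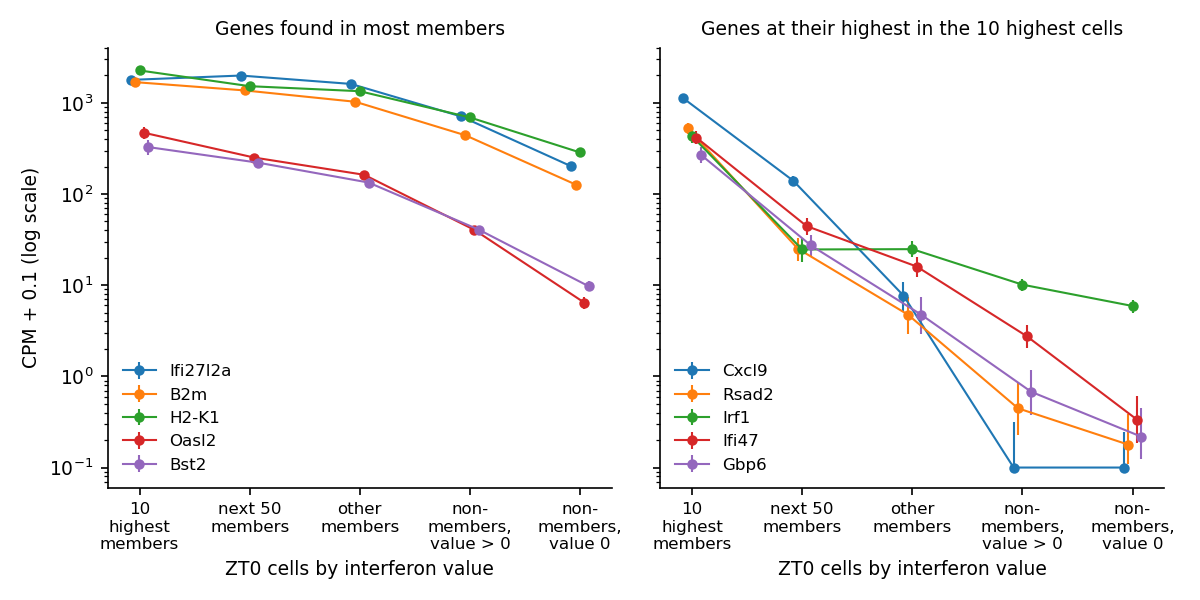
CPM plus 0.1 (log scale) in 5 sets of ZT0 cells ordered by interferon value, with bars for the 95% counting interval, for genes found in most members (left) and genes at their highest in the 10 highest cells (right). The genes on the left, apart from Ifi27l2a, are also at their highest in the 10 highest members. On the left B2m has 1689 CPM in the 10 highest members and 127 CPM in cells with a value of 0; on the right Cxcl9 has 1125 CPM in the 10 highest members and 0 CPM in the cells outside the members.

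Among the genes outside the interferon lists with a mean of at least 50 CPM, the largest ratio was that of Chil4, a chitinase-like protein known from mouse airways in type 2 inflammation (ENSMUSG00000063779, chromosome 3, 106201490 to 106219507, minus strand). It summed to 2303 CPM (2266 to 2341) in ZT0 members and to 72.1 CPM (69.5 to 74.7) in other ZT0 cells, a ratio of 32.0 (30.7 to 33.2). The median cell had 0 UMIs in both groups. At least 10 Chil4 UMIs were found in 33 of 189 ZT0 members (17.5%, 12.3 to 23.6%), in 13 of 1327 other ZT0 cells (0.980%, 0.523 to 1.67%) and in 0 of 2550 ZT12 cells. A single member with 5557 Chil4 UMIs held 38.0% of the Chil4 UMIs of the members, and these were 13.2% of all its UMIs. Without this cell, at rank 179, the ZT0 members had 1438 CPM, with an interval of 19.2 to 20.8 for the ratio. Alox15, a lipoxygenase also known as a target of interleukins 4 and 13, had at least 1 UMI in 32 of the 33 Chil4-rich members and in 36 of the 156 remaining ZT0 members. Over all ZT0 members Alox15 had 196 CPM, against 11.0 CPM in other ZT0 cells.

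Summed over cells, the Chil4-rich members had more Krt13 and less Krt5 than the remaining members, and their interferon genes had levels near those of the remaining members. Not every Chil4-rich member was of the differentiated type. The cell at rank 14, with 11 Chil4 UMIs, had 62 Krt5 and 74 Krt14 UMIs against 53 Krt13 and 27 Krt4 UMIs. Krt13 summed to 48928 CPM in the 33 Chil4-rich members and 29999 CPM in the remaining 156, and Krt5 to 216 CPM in the Chil4-rich and 1856 CPM in the remaining members. B2m had 1323 CPM in Chil4-rich and 1122 CPM in remaining ZT0 members, and Oasl2 had 228 CPM in Chil4-rich and 201 CPM in remaining members. Chil4 did not follow the interferon value as the antiviral genes did: it had 143 CPM in the 10 highest members, 1895 CPM at ranks 11 to 60, 2687 CPM at ranks 61 to 189, 143 CPM in other ZT0 cells with a value above 0 and 23.8 CPM in those with a value of 0. Without the cell at rank 179 ranks 61 to 189 had 1338 CPM, so the order of these ranks against ranks 11 to 60 rested on that cell, and without the cell at rank 6 the 10 highest members had 27.4 CPM. Of the 6 measured genes of the type 2 list Chil4, Alox15 and the chemokine Ccl11 were higher. Ccl11 was measured only through the members, where it had 97 UMIs in 7 cells, 96.9% of them in 5. By contrast, Stat6 and Il13ra1, which relay interleukins 4 and 13, had 49.2 and 68.8 CPM in ZT0 members and 40.1 and 66.0 CPM in other ZT0 cells. Chil3, a close relative of Chil4 whose reads could in part be shared, had 56 UMIs in ZT0 members and 0 in other ZT0 cells.

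Apart from a few cells with leukocyte markers, the members spanned basal and differentiated keratinocytes. Their share of differentiated cells was larger than that of the other ZT0 cells. The summed keratins Krt5, Krt14 and Krt15 exceeded Krt13 plus Krt4 in 79 of 189 ZT0 members (41.8%, 34.7 to 49.2%) and in 780 of 1327 other ZT0 cells (58.8%, 56.1 to 61.4%). The 189 include 4 members with a UMI of the leukocyte gene Ptprc, 2 of them counted on each side. The 5 keratins together had a median of 353 UMIs per 10000 in ZT0 members and 268 in other ZT0 cells. Krt4 had 23550 CPM in ZT0 members and 6986 CPM in other ZT0 cells, and Krt13 had 34406 CPM in ZT0 members and 16020 CPM in other ZT0 cells. Of 13 measured differentiation genes 3 (Krt4, Krt13 and the desmosomal Dsc2) were higher and none lower. None of 12 basal genes reached the limit, but all 12 had lower values in the members, with a median log2 ratio of -0.47. None of 18 proliferation genes reached it, and Mki67 had 75.1 CPM in ZT0 members and 129 CPM in other ZT0 cells.

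**Figure D5:**
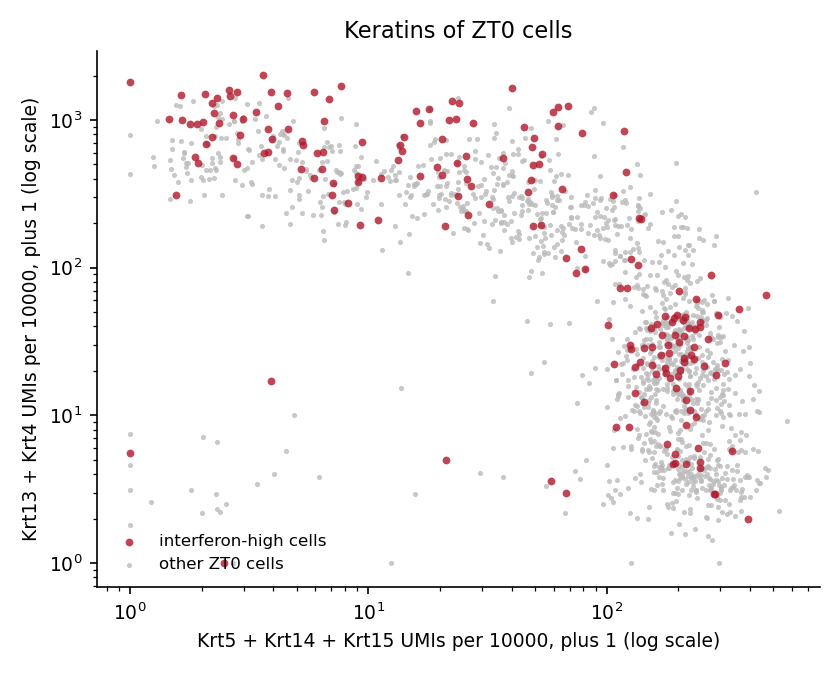
Krt13 plus Krt4 against Krt5 plus Krt14 plus Krt15, each in UMIs per 10000 plus 1 (log scales), for each of the 189 interferon-high and 1327 other kept ZT0 cells. Interferon-high cells occur along the whole band from basal cells (lower right) to differentiated cells (upper left), and a few lie low on both axes.

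Genes of the cornified envelope, the protein shell of dying surface cells, were called higher in 7 of 12 cases and lower in 1, Sprr1b. Over the 10 of these genes that had at least 5 CPM in other ZT0 cells, 5 were higher. Most of this came from few cells. Crct1 had 108 CPM in ZT0 members and 4.91 CPM in other ZT0 cells, but 95.9% of its UMIs in the members lay in 5 cells, and Lor (loricrin) had 214 CPM in ZT0 members and 18.3 CPM in other ZT0 cells, with 88.3% in 5 members. Sprr2a3, a small proline-rich protein with near-identical neighbours, had 204 CPM in ZT0 members and 11.1 CPM in other ZT0 cells, with 68.0% in 5 members. Gsdmc and Gsdma, pore-forming gasdermins, were the only 2 of 13 measured cell death genes called higher, and Gsdmc had 127 CPM in ZT0 members and 21.0 CPM in other ZT0 cells. Gsdma had under 5 CPM in other ZT0 cells and was measured only through the members. Over the 11 cell death genes with at least 5 CPM in other ZT0 cells, 1 was higher.

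Genes of filiform papilla keratinocytes, which build the hard spines of the tongue with hair-type keratins, summed to lower CPM in the members than in other ZT0 cells. Of the 7 measured genes of their list 6 were lower and none higher, with a median log2 ratio of -2.51. Krt84 had 1.26 CPM (0.543 to 2.48) in ZT0 members and 192 CPM (188 to 196) in other ZT0 cells, and Krt36 had 18.3 CPM in ZT0 members and 439 CPM in other ZT0 cells. The sums of the other ZT0 cells came largely from few cells, with 57.1% of Krt84 and 49.2% of Krt36 UMIs in 5 of them. Krt84 was found in 4.23% of ZT0 members and 6.33% of other ZT0 cells. Krt36 was found in 35.4% of ZT0 members and 27.6% of other ZT0 cells, so its difference was not one of detection. Krt35, Tchh, Lef1 and Hoxc13 were also lower. The stress keratins Krt16 and Krt17 had 339 and 277 CPM in ZT0 members and 915 and 722 CPM in other ZT0 cells and were both called lower. Other genes with the largest differences downwards were Apcdd1, Sostdc1 and Serpine2, Isl1, Krt24 and Dcn, which had 197 CPM in ZT0 members and 905 CPM in other ZT0 cells.

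The 1516 kept ZT0 cells were clustered without the interferon, MHC, chemokine and type 2 lists, which gave 14 clusters, and the members were unevenly spread over them. Genes outside those lists were kept. Ifi202b, by its name an interferon-activated gene, was among the leading genes of clusters 4 and 8, so the clusters were not made wholly without such genes. Cluster 8, led by Sprr2a3, Gsdmc and Cyp2f2, had 43 members among 85 cells (50.6%, 39.5 to 61.6%), and cluster 5, led by Crct1, Lor and Serpinb12, had 37 among 119 (31.1%, 22.9 to 40.2%). Cluster 2, led by Glul, Igfbp4 and Sfrp1, had 39 among 175 (22.3%, 16.4 to 29.2%), and cluster 1, led by histone and mitosis genes, had 20 among 177 (11.3%, 7.04 to 16.9%). At the other end, cluster 0, led by Sptssb and Arhgef26, had 2 among 180 (1.11%, 0.135 to 3.96%) and cluster 12, with Krt84 and Krt36 among its leading genes, had 0 among 42, which allows up to 8.41%. Genes that lead cluster 8 and cluster 5 are also among those called higher in the members, so those calls and the uneven spread are not separate observations.

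Within the 6 clusters that had at least 10 members, B2m, Oasl2 and Psmb8 were higher in the members in each case. B2m ratios ranged from 1.88 in cluster 8 to 4.67 in cluster 1, Oasl2 ratios from 2.95 to 15.3 and Psmb8 ratios from 3.12 to 9.96. In cluster 8 the other cells already had 704 CPM of B2m, against 1325 CPM in its members. The Chil4 ratio was above 1 in 4 of the 6, in 3 of them with an interval that left out 1. It had 7531 CPM in members and 1317 CPM in other cells of cluster 8, and 2014 CPM in members and 25.8 CPM in other cells of cluster 1. Without the cell at rank 179 the members of cluster 8 had 3863 CPM, and without the cell at rank 145 those of cluster 1 had 29.7 CPM, a ratio of 1.15 (0.677 to 1.86), which leaves 2 clusters with an interval above 1. Chil4 had 0 UMIs in the members of clusters 4 and 11. The Krt5 ratio was below 1 in all 6, at 0.314 to 0.971, but in cluster 2 its interval (0.937 to 1.005) included 1.

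When the other ZT0 cells were weighted to the cluster makeup of the members, 41 of 2746 genes (1.49%) were higher at a mean of at least 50 CPM, 39 of them among the 74, and 0 (0%) were lower. At a mean of at least 5 CPM, 148 of 9454 genes (1.57%) were higher and 8 (0.0846%) were lower, and the median log2 ratio over all of them was -0.06. Of the antiviral list 34 of 43 genes were called higher at a median log2 ratio of 1.81, and the 8 MHC class I genes were called higher. Krt4 then had a log2 ratio of 0.64 in place of 1.75 and Krt13 0.35 in place of 1.10, both under the limit, and no differentiation gene was called. Chil4 had 2.73 in place of 4.98. Krt84, Krt36 and Krt35 were called lower at 5 CPM, with Krt84 at -3.22 in place of -6.42. The keratin differences of the members were thus smaller against cells of the same clusters, and the antiviral median was 1.81 in place of 2.28. Keratin genes could enter the clustering and genes of the antiviral list could not. The contrast between them is therefore in part given by construction, and no conclusion is drawn from it.

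Markers of other cell types were looked for in the members because living cells were sorted without a marker of epithelium, as far as the labels say. A Ptprc UMI was found in 2 of 11 ZT12 members, 4 of 189 ZT0 members, 5 other ZT12 cells and 6 other ZT0 cells. The 5 keratins had a median of 8.03 UMIs per 10000 in the 2 ZT12 members with Ptprc and 11.8 in the 4 ZT0 members with Ptprc, against 371 in the 185 ZT0 members without it. The cell at rank 10 had 12 Ptprc and 5 Cd3g UMIs and no Krt5, Krt13 or Krt4 UMI. At rank 27 the cell had 6 Ptprc and 6 Cd3g UMIs with 4 Krt13 UMIs and no Krt5 UMI. The name keratinocyte thus does not hold for every member. Of 16 T and NK cell genes 14 had a UMI in ZT0 members, and Gzmb and Cd52 were called higher with 12.9 and 14.9 CPM in ZT0 members and 0 and 1.82 CPM in other ZT0 cells. All 3 measured genes of this list had under 5 CPM in other ZT0 cells, so they were measured only through the members. The summed list had a median of 0 in both groups, ranging to 128 UMIs per 10000 in ZT0 members and 207 in other ZT0 cells. Of 16 Langerhans cell and myeloid genes 13 had a UMI in ZT0 members, and Cd207, Lyz2 and Adgre1 were at 0. This list summed to a median of 5.44 UMIs per 10000 in ZT0 members and 3.92 in other ZT0 cells. Neither of its 2 measured genes was called higher or lower. Also at 0 in ZT0 members were 6 of 7 fibroblast genes including Col1a1, and the exception was Dcn. Without cells that had a UMI of Ptprc, Cd3e, Cd3g, Tyrobp or Fcer1g, 77 genes were higher and 25 lower.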

How the data were processed

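The deposited values were raw UMI counts for 32285 genes in each of 2 libraries, without correction for free RNA. Their file headers name cellranger 4.0.0, whereas the submitters' processing notes list Cell Ranger 2.1.1, with build mm10, and which of them made the counts could not be settled. Gene positions came from GENCODE M21 by identifier (32235 found), and promoters from RefSeq. The members, gene lists and tests were chosen with earlier results of these data known.

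The kept cells held 67171166 UMIs at ZT12 and 49124444 at ZT0. With 1 library per time no test or p-value was made. Counts were summed over cells, with exact Poisson intervals for CPM, exact conditional binomial intervals for ratios and Clopper-Pearson intervals for shares. Named genes were the rule genes, Chil4, the 20 highest and 10 lowest calls, and up to 4 genes per list with a mean of at least 20 CPM; further genes were chosen after their values were seen. Clusters came from scanpy 1.11.5 and leidenalg 0.10.2 (2000 variable genes, 30 components, 15 neighbours, resolution 1). Scrublet called 10 ZT12 and 3 ZT0 cells (0.392% and 0.198%), no member among them, so doublets were in effect not removed. On simulated counts of 32285 genes at the depths of ZT0 members and other ZT0 cells, the size rule called all 66 genes changed 2.5-fold, all 67 changed 4-fold, 0 of 67 changed 1.5-fold and 0 of 2598 unchanged ones. The simulated sums had counting error only and no spread between cells. They therefore give no error rate for genes whose UMIs lie in few cells. edgeR 4.0.16 (R 4.3.3) gave the TMM alternative.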

Additional observations from a re-analysis of the deposited data

How the results depend on the processing

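The count of 74 higher genes became 133 at a minimum of 20 CPM, 38 at 100 CPM, 42 with 400 cells chosen, 40 with cells chosen on Cxcl10, Gbp2 and Iigp1 alone and 41 against cluster-weighted cells. The count of 22 lower genes became 57 at 20 CPM, 12 at 100 CPM, 37 with 100 cells, 14 with 400 cells and 0 against cluster-weighted cells. The antiviral median of 2.28 became 1.48 with a pseudocount of 10 CPM, 2.16 without a minimum, 1.80 with cells chosen on Cxcl10, Gbp2 and Iigp1, 1.81 against cluster-weighted cells and 2.04 without the 10 highest ZT0 members. The share of members from ZT0 became 76.5% with cells chosen on Cxcl10, Gbp2 and Iigp1. Fewer or more genes enter at another minimum CPM, and a larger pseudocount shrinks ratios by construction; the cause of the other moves was not tested. Choosing on Isg15, Ifit1 and Ifit3 alone kept 186 of the 200 cells, and choosing on Cxcl10, Gbp2 and Iigp1 alone kept 90; in the last, Lor had a log2 ratio of -0.60 and Sostdc1 of 0.014, reversed from 3.48 and -1.76. TMM factors shifted every log2 ratio by 0.10 and gave 89 higher and 18 lower genes. The other alternatives (a mean over cells, stricter cell filters, no cells with high Scrublet scores, no cells with immune markers) stayed within 1.5 times the counts. Leaving out the 10 highest members, or all ZT0 cells with at least 10 Chil4 UMIs (56 higher and 15 lower genes), or the member with most Chil4 UMIs in a set, was added after seeing the data. Of 540 values of named genes under 15 alternatives, 480 kept their direction and call status, 58 gained or lost a call and 2 reversed in direction. The size of each move was not part of this count. No paired analysis was possible because each time had 1 library. With 1 library per time nothing here measures the spread between animals.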

Other observations

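The 11 ZT12 members also had antiviral and MHC class I transcripts above the other ZT12 cells. Oasl2 had 160 CPM in ZT12 members and 1.32 CPM in other ZT12 cells. B2m had 305 CPM in ZT12 members and 27.6 CPM in other ZT12 cells, and Ifi27l2a had 430 CPM in ZT12 members; in ZT0 members B2m had 1169 CPM and Ifi27l2a 1739 CPM. These sums rest on 281634 UMIs of 11 cells, 2 of which had Ptprc UMIs. No ZT12 member had a Chil4 UMI. The highest ZT12 member, at rank 15 over both libraries, had 21 Isg15 UMIs and 263 Krt14 UMIs.

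General stress genes were near level between ZT0 members and other ZT0 cells. None of 15 immediate early genes and none of 12 heat shock genes reached the 2-fold limit, with median log2 ratios of 0.20 and -0.10. Of 12 NRF2 targets Me1 was higher and Slc7a11 lower. Some calls rested on single cells: Ltf (lactoferrin) had 494 of its 508 UMIs in the ZT0 members in the cell at rank 105, and Gzmb (granzyme B) had 80 of 82 in the cell at rank 123, which also had 98 Krt14, 4 Ptprc and 15 Il33 UMIs. Slpi, a secreted protease inhibitor of mucosal surfaces, had 73.3 CPM in ZT0 members and 5.33 CPM in other ZT0 cells, and was found in 6.35% of ZT0 members. Of the ZT0 members 11 were among the 5% of ZT0 cells with the highest Scrublet scores.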
